A study of Mus musculus with 51 samples.

Results

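The opening 8 h of embryonic day 18 were examined in the fetal mouse kidney by setting the 4 libraries of CT8 against the 4 libraries of CT0, with the 4 libraries of CT4 between them. The libraries were chosen by the time in their labels, and the 12 used here are among 51 in the series. CT8 kidneys were labelled E18 + 8 h, CT4 kidneys E18 + 4 h and CT0 kidneys E18. CT16 and CT24 kidneys, used for a later interval, were at E18 + 16 h and E19. All groups were wild-type C57BL/6 fetuses, with no treatment, allele or agent named. Poly-A RNA of fetal kidneys was sequenced, and each library is labelled as a biological replicate. The labels name neither dams, litters nor sexes, so p-values measure the spread between these samples, and time, litter and collection cannot be told apart where the fetuses of 1 time point share a dam. The series bears on the circadian clock in kidney development, and this comparison shows what differed across its first 8 h.

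Late in gestation the mouse kidney still adds nephrons. Progenitor cells capped around the tips of the branching ureteric tree, which becomes the collecting duct, are induced to form epithelium, and stromal cells surround them. Older nephrons have by then begun to express the transporters and enzymes of the proximal tubule, the loop of Henle and the distal tubule. Cells that divide in the outer, nephron-forming zone express the cyclins, kinases and motor proteins of mitosis.

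Values are the deposited numbers, which were normalised and then rounded, so depth per library is unknown. Library totals lay between 34247107 and 34657414. Defining genes of the loop of Henle (Umod), the collecting duct (Aqp2), the proximal tubule (Slc34a1), nephron progenitors (Six2), ureteric tips (Ret) and vessels (Pecam1) were all present in every library. The lowest of these values was 1355, for Ret. On the first principal component of the 12 libraries, CT8 replicate 2 lay at -1.69 against 6.62 to 13.9 in the other CT8 libraries, and CT0 replicate 3 lay at 2.23 against -12.8 to -8.38 in the other CT0 libraries. List counts for CT8 against CT0 are also given without these 2 libraries where that changes them, a setting chosen after the values had been seen. They also lay apart on the second component. There CT8 replicate 2 was at 15.34, against -2.9 to 4.66 in the other CT8 libraries. CT0 replicate 3 was at -16.02, against -2.41 to 3.32 in the other CT0 libraries. By the size of their deviations these 2 libraries did not stand out. Their median absolute log2 deviation from the rest of their group was 0.0654 and 0.0569, while the largest was 0.0786, in CT8 replicate 4. In whole tissue, fewer cells of a type and less RNA per cell cannot be told apart.

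Differences were tested with limma on log2(value + 1) across 14336 genes, and a gene passed at a Benjamini-Hochberg adjusted p under 0.05. Between CT8 and CT0, 1099 genes passed, or 7.67% of those tested. Of these, 507 were higher at CT8 (3.54%) and 592 were lower (4.13%). The differences were small: their median size was 0.21 on the log2 scale, 77 exceeded 0.5, and 5 exceeded 1. The median over all tested genes was -0.01. For 722 genes (5.04%) the 4 CT8 libraries all lay above the 4 CT0 libraries, and for 930 (6.49%) they all lay below. Without CT8 replicate 2 and CT0 replicate 3, 550 genes passed, and the count was 502 without CT8 replicate 3, 706 without CT8 replicate 2, 635 without CT0 replicate 2 and 622 without CT0 replicate 4. The error term came from the 27 libraries of CT0 to CT24, in which the median SD was 0.0746 on the log2 scale. With the noisier libraries of CT28 to CT48 added, at a median SD of 0.135, 62 genes passed, and 12 of the 85 named genes with a call kept it. When 1 library was left out, 55 to 79 of these 85 kept their call. The calls of Kap, Pck1, Slc13a3, Slc14a2, Aqp6, Cyp4a10, Slc3a2, Insig1, Hlf, Chaf1b, Meox1, Foxc2, Thsd7a, Oas1a and Lgals3bp were each lost in 8 to 11 of 21 alternatives.

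Of 31 tested genes on a proximal tubule list, 16 rose (51.6%, against 3.54% of all tested genes) and 0 fell. All 31 differences were above 0, with a median of 0.31 on the log2 scale. G6pc, the catalytic subunit of glucose-6-phosphatase, which releases free glucose, had values of 2064, 2707, 3242 and 2443 at CT8, against 1080, 944, 1642 and 1486 at CT0. The lowest CT8 library was above the highest CT0 library, and the log2 difference was 1.04 ± 0.18 (SE; limma adjusted p = 0.00161). Other enzymes of glucose synthesis were higher too. Fbp1, fructose-1,6-bisphosphatase, had values of 15705, 18640, 17601 and 16045 at CT8, against 13146, 13046, 13393 and 12702 at CT0. Its groups did not overlap, and its log2 difference was 0.38 ± 0.05 (SE; limma adjusted p = 2.07e-05). Pcx, which makes oxaloacetate from pyruvate, rose by 0.29, and Pck1, the phosphoenolpyruvate carboxykinase that follows it, by 0.50. In all, 5 of 11 genes on a list of gluconeogenesis and glucose transport rose and 0 fell, at a median of 0.16, and 4 rose without both libraries that stand apart. The share of 5 of 11 is 45.5%, against 3.54% of all tested genes.

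Transporters made up much of the rest of the proximal tubule calls. The dicarboxylate carrier Slc13a3 rose by 0.43, the dibasic amino acid transporter subunit Slc7a7 by 0.37, the cystine transporter subunit Slc3a1 by 0.31, the organic anion transporters Slc22a8 and Slc22a6 by 0.27 and 0.25, and the phosphate transporter Slc34a1 by 0.21. The androgen-regulated gene Kap ranged from 5871 to 10521 at CT8, against 4402 to 5554 at CT0, and rose by 0.79 ± 0.22 (SE; limma adjusted p = 0.0321). The call for Pck1 was lost in 10 of 21 alternatives and that for Kap in 9, while Fbp1 passed in all 21. At CT4 the list's median difference from CT0 was 0.11, and 0 of its genes passed in limma's test, with 9 at an unadjusted p under 0.05. The count of 16 became 9 without CT8 replicate 2, 10 without CT8 replicate 3, 10 without CT0 replicate 3, and 6 without both libraries that stand apart. Liver expresses many of the same enzyme genes. The summed level of a liver list was 10008 to 12737 at CT8, against 9611 to 10667 at CT0, and 1 of its 13 tested genes passed (Ttr, below). Of the 13 differences, 12 were above 0 and 1 below, at a median of 0.21. Without CT8 replicate 2 the liver median was 0.02 and the proximal tubule median 0.25. Alb, a defining liver gene, lay between 24 and 503 over the 12 libraries. The part of liver RNA in these results was not tested.

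**Figure D1:**
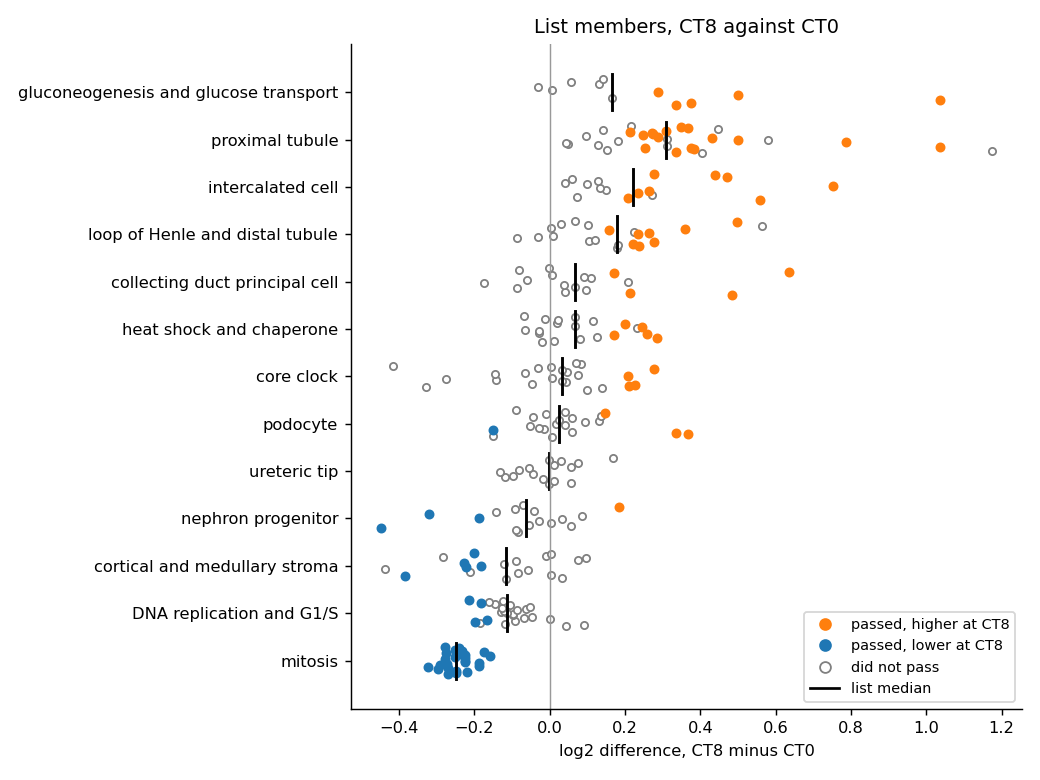
Log2 difference of CT8 minus CT0 (x axis) for each tested member of 13 gene lists (rows). Filled points passed the test and open points did not, and black bars are list medians. All 25 mitosis genes lie below 0, and all 31 proximal tubule genes lie above it.

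On a list of 21 tested genes of the thick ascending limb and the distal tubule, 8 rose and 0 fell, with a median of 0.18. The share that rose was 38.1%, against 3.54% of all tested genes. Umod encodes uromodulin, the protein that thick limb cells secrete into urine. Its values were 5418, 7122, 6581 and 5464 at CT8, against 4836, 4116, 3955 and 4448 at CT0. The groups did not overlap, and the log2 difference was 0.50 ± 0.09 (SE; limma adjusted p = 0.0013). Slc12a3, the sodium chloride cotransporter blocked by thiazides, rose by 0.36, the tight junction genes Cldn16 and Cldn10 by 0.28 and 0.22, the potassium channel gene Kcnj1 by 0.23, and Slc12a1, the cotransporter blocked by furosemide, by 0.16. The list's count was 5 without CT8 replicate 3 and 4 without both libraries that stand apart.

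In the collecting duct, 4 of 17 principal cell genes rose (23.5%, against 3.54% of all tested genes) and 0 fell. Without both libraries that stand apart, 4 rose and 1 fell. Aqp2, the water channel that vasopressin moves to the apical membrane, had values of 7377, 9087, 7829 and 7440 at CT0, 7126, 7071, 6848 and 7493 at CT4, and 10844, 9582, 11591 and 12365 at CT8. All CT8 libraries lay above all others, at a log2 difference from CT0 of 0.48 ± 0.08 (SE; limma adjusted p = 0.000556). The CT4 mean lay 0.39 below the mean of the 2 end points (limma adjusted p = 0.00613). The difference thus stood in the second 4 h. Slc14a2, a urea transporter, rose by 0.64, the basolateral water channel gene Aqp3 by 0.21, and Scnn1g, a subunit of the epithelial sodium channel, by 0.17. The call for Slc14a2 was lost in 9 of 21 alternatives.

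Intercalated cells secrete acid or base into the collecting duct. Of 16 genes on their list, 8 rose, against 3.54% of all tested genes, and 0 fell, at a median of 0.22. All 16 differences were above 0. The homeobox gene Hmx2 averaged 95.2 ± 6.45 at CT8 and 56.8 ± 11.03 at CT0 (SD, n = 4 each). Its lowest CT8 library, 86, was above its highest CT0 library, 73, and the log2 difference was 0.75 ± 0.12 (SE; limma adjusted p = 0.000377). Slc4a1, the chloride-bicarbonate exchanger of acid-secreting cells and of red cells, had values of 410, 502, 477 and 410 at CT8, against 302, 360, 348 and 314 at CT0. Its groups did not overlap either, at 0.44 ± 0.09 (SE; limma adjusted p = 0.00204). Slc26a4, the pendrin exchanger of base-secreting cells, rose by 0.47, Aqp6, an intracellular channel, by 0.56, Slc4a9, another bicarbonate transporter, by 0.28, the carbonic anhydrase genes Car2 and Car12 by 0.26 and 0.23, and the proton pump subunit gene Atp6v0d2 by 0.21. Foxi1, the transcription factor that specifies these cells, differed by 0.13 and did not pass (limma adjusted p = 0.0664). The count of 8 became 4 without CT8 replicate 2, 4 without CT8 replicate 3, 5 without CT0 replicate 4, and 4 without both libraries that stand apart. The summed level of an erythroid list, which also holds Slc4a1, was 6527 to 7522 at CT8, against 5446 to 6273 at CT0. Its members were mixed, with 5 differences above 0 and 2 below. Slc4a1 was the 1 of its 7 tested genes that passed, and Gata1 lay between 1 and 6. The part of red cells in the Slc4a1 result was not tested.

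**Figure D2:**
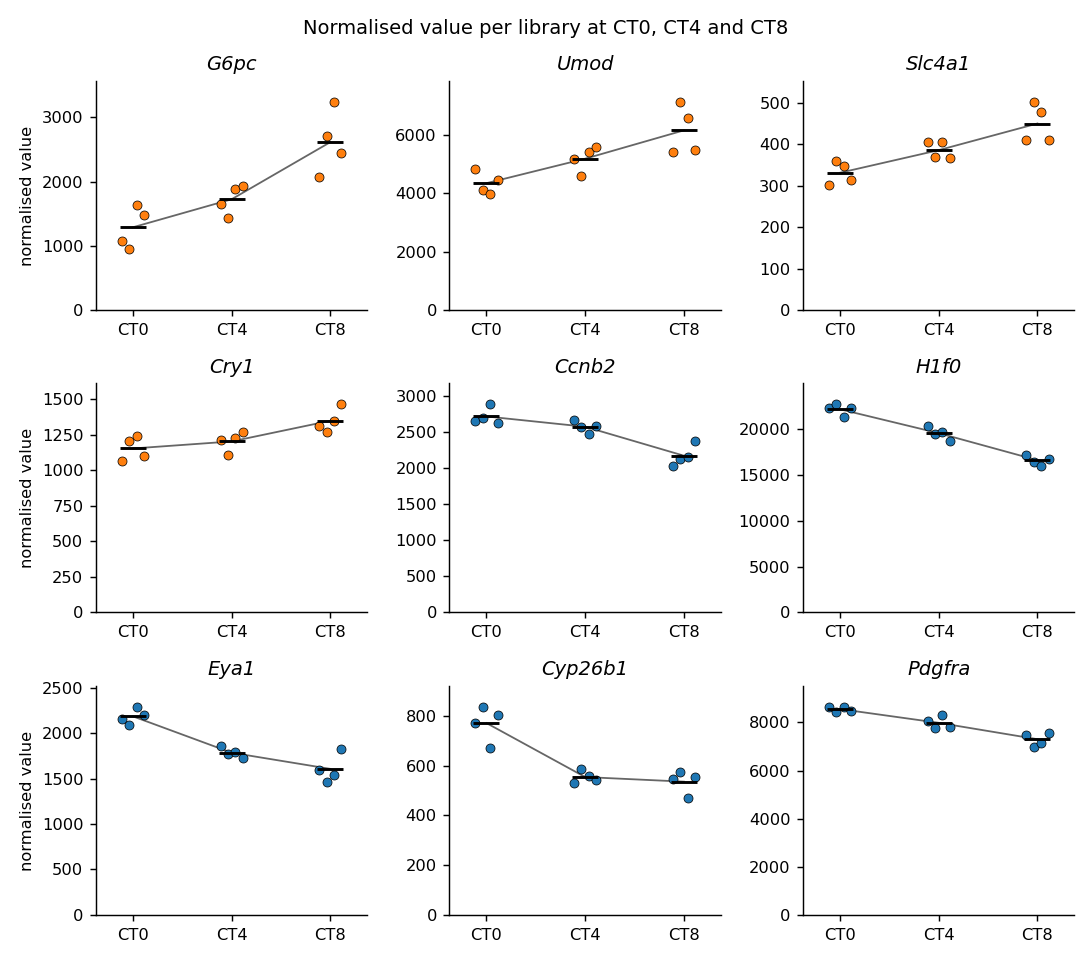
Normalised value (y axes, from 0) in each library (points) and the mean (bars, joined by a line) at CT0, CT4 and CT8 (x axes) for 9 genes. G6pc, Umod, Slc4a1 and Cry1 (orange) are higher at CT8 than at CT0, and Ccnb2, H1f0, Eya1, Cyp26b1 and Pdgfra (blue) are lower.

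Mitotic genes fell. Every gene of a mitosis list, 25 of 25, was lower at CT8 and passed, against 4.13% of all tested genes. The differences ran from -0.16 (Kif23, a kinesin of the dividing cell's midzone) to -0.32 (Ccnb2, cyclin B2), with a median of -0.25. The summed level of the list was 70226 to 81980 at CT8, against 85965 to 89364 at CT0. Ccnb2, which with its kinase drives entry into mitosis, had values of 2035, 2124, 2158 and 2386 at CT8, against 2652, 2705, 2889 and 2636 at CT0. There was no overlap between the times, and the log2 difference was -0.32 ± 0.04 (SE; limma adjusted p = 5.01e-05). Bub1b, a kinase of the spindle checkpoint, had values of 2574, 2736, 2610 and 3067 at CT8, against 3256, 3492, 3236 and 3479 at CT0. Its groups did not overlap either, at -0.30 ± 0.05 (SE; limma adjusted p = 0.000619).

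The other members showed differences of like size. Ccnb1 fell by 0.27, the antigen Mki67 by 0.23, Cdk1, the mitotic kinase itself, by 0.19, and Cdc20, an activator of the anaphase-promoting complex, by 0.19. At CT4 the list's median difference from CT0 was -0.13, and between CT4 and CT8 it was -0.12, so CT4 lay midway. The count stayed between 20 and 25 when 1 library was left out, was 18 without both libraries that stand apart, and was 5 with all 51 libraries in the fit. Genes of DNA replication and entry into S phase moved less. Of 25 tested, 4 fell (16.0%, against 4.13% of all tested genes) and 0 rose, at a median of -0.11. Those 4 were Uhrf1, which maintains DNA methylation after replication (-0.21), the licensing factor Cdt1 (-0.20), the ribonucleotide reductase subunit Rrm1 (-0.18) and the histone chaperone subunit Chaf1b (-0.17). The count was 0 without CT8 replicate 3, 1 without CT0 replicate 2, 2 without CT8 replicate 1 or CT0 replicate 3, 12 without CT8 replicate 4, and 0 without both libraries that stand apart.

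The promoters of the 2 mitosis genes with the greatest falls are shown because the letters CCAAT recur upstream of this group. The sequences are from RefSeq on GRCm38.p6, each the 250 bases before the listed start of the gene, 5′ to 3′ on the gene's strand, with capitals marking CCAAT or its reverse complement ATTGG. The Ccnb2 window is chr9:70421555-70421804 on the minus strand and the Bub1b window is chr2:118597961-118598210 on the plus strand.
Ccnb2: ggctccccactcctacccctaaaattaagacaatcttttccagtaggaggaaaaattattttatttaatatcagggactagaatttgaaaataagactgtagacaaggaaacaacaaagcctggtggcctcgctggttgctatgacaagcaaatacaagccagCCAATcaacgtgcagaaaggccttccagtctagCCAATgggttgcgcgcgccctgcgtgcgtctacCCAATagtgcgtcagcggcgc
Bub1b: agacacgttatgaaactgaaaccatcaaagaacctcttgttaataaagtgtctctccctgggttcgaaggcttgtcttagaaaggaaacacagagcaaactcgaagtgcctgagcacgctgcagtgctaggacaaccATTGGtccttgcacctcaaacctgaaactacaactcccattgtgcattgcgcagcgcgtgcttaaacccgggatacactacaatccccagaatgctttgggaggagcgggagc
In Ccnb2 the letters began 87, 54 and 21 bases before the start, and Bub1b holds them once, on the other strand. Promoters of 21 mitosis genes were in the table, and 20 of their 22 windows held CCAAT on either strand (90.9%), against 34.6% of the 14177 windows of tested genes. TTTGAA, searched on both strands, was in 36.4% of the mitosis windows and in 10.8% of all windows. Of the other letters searched, CACGTG was in 4.5% of the mitosis windows and in 7.9% of all windows. TGACG was in 18.2% and 24.5%, so both were less frequent in the mitosis windows. The windows of the DNA replication list held CCAAT in 68.0% and TTTGAA in 16.0%, those of the proximal tubule list in 34.3% and 22.9%, and those of the intercalated cell list in 33.3% and 0%. These are matches of letters, and binding was not measured.

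H1f0, which encodes the linker histone H1.0, a variant made outside S phase and abundant in resting and differentiated cells, also fell. Its values were 22241, 22680, 21341 and 22291 at CT0, 20367, 19450, 19624 and 18708 at CT4, and 17192, 16442, 15997 and 16718 at CT8. The 3 groups did not overlap at any step, and the log2 difference of CT8 minus CT0 was -0.42 ± 0.03 (SE; limma adjusted p = 3.47e-10). It had fallen by 0.18 at CT4 (limma adjusted p = 0.00352), and it passed under all 21 alternatives.

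On the nephron progenitor list, 3 of 16 tested genes fell and 1 rose, at a median of -0.06, so that 25% had a call, against 7.67% of all tested genes. Without CT8 replicate 4, 6 fell and 0 rose, and without both libraries that stand apart 2 fell and 1 rose. Eya1, a transcriptional coactivator and phosphatase that progenitors need, had values of 2160, 2092, 2291 and 2200 at CT0, 1859, 1767, 1789 and 1727 at CT4, and 1596, 1459, 1545 and 1830 at CT8. CT0 lay above both other times, and the log2 difference of CT8 minus CT0 was -0.45 ± 0.05 (SE; limma adjusted p = 2.9e-06). Phf19, a partner of the Polycomb complex, fell by 0.32 and the homeobox gene Meox1 by 0.19, while the membrane protein gene Tmem100 rose by 0.18. Six2, the transcription factor that keeps progenitors undifferentiated, ranged from 2212 to 2974 at CT8, against 2466 to 2738 at CT0, so its groups overlapped. On the ureteric tip list 0 of 16 genes passed in limma's test, with 2 at an unadjusted p under 0.05, at a median of -0.002. On the early nephron list Lfng, a modifier of Notch receptors, fell by 0.20 and Sfrp2, a secreted Wnt inhibitor, by 0.16, while Papss2, which makes the sulfate donor, rose by 0.22. These were 3 of 18 tested genes (16.7%), and 0 passed without both libraries that stand apart.

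On the stroma list, 5 of 19 tested genes fell (26.3%, against 4.13% of all tested genes) and 0 rose. The median was -0.12, with 14 differences below 0 and 5 above. Pdgfra, the receptor that marks interstitial fibroblasts, had values of 7499, 6986, 7153 and 7578 at CT8, against 8653, 8449, 8647 and 8480 at CT0. The groups did not overlap, and the log2 difference was -0.23 ± 0.04 (SE; limma adjusted p = 0.000388). The tight junction gene Cldn11 fell by 0.38, the homeobox genes Meis1 and Meis2 by 0.22 and 0.18, and the transcription factor gene Zeb2 by 0.20. The count was 5 to 7 when 1 library was left out and 5 without both libraries that stand apart. On the collagen list 0 of 24 genes passed, and on the endothelial list 0 of 20, with medians of 0.01 and -0.003. At an unadjusted p under 0.05 in limma's test there were 0 collagen and 2 endothelial genes.

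Of 21 podocyte genes, 3 rose and 1 fell, while 7.67% of all tested genes had a call. Without CT8 replicate 4, 5 podocyte genes rose and 2 fell. Without both libraries that stand apart, 2 rose and 0 fell. Col4a3 and Col4a4 encode partner chains of the mature glomerular basement membrane. Col4a4 had values of 3050, 3217, 3223 and 3046 at CT8, against 2625, 2448, 2464 and 2404 at CT0. There was no overlap between the times, and the log2 difference was 0.33 ± 0.05 (SE; limma adjusted p = 7.13e-05). Col4a3 rose by 0.37, and its lowest CT8 library, 2597, was above its highest CT0 library, 2207. Foxc2, a transcription factor of young podocytes, fell by 0.15 in the main test, but the call was lost in 10 of 21 alternatives.

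Several of the greatest falls were in genes of mixed function. Cyp26b1, which degrades retinoic acid, had values of 772, 836, 672 and 802 at CT0, 531, 585, 559 and 540 at CT4, and 545, 573, 469 and 554 at CT8. CT4 and CT8 overlapped and both lay below CT0, at -0.47 for CT4 (limma adjusted p = 0.00277) and -0.52 for CT8 (limma adjusted p = 0.000165). Between CT8 and CT4 the difference was -0.05 (limma adjusted p = 0.834). The CT4 mean lay 0.21 below the mean of the 2 end points, which did not pass (limma adjusted p = 0.241). By its means the fall was thus mostly present at CT4, but unlike for Aqp2 a departure from a straight line was not shown. Shh, the hedgehog ligand secreted by the ureter and the medullary collecting duct, fell by 0.44 ± 0.10 (SE; limma adjusted p = 0.00808), and each CT8 library lay below each CT0 library. B3gnt5, which makes the core of lacto-series glycolipids, fell by 0.56, the pentraxin gene Ptx3 by 0.50, and Sprr2f, of the small proline-rich family, by 0.57. Xkr5, Oit3 and Ubxn10 fell by 0.45, 0.43 and 0.43.

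The greatest rises outside the tubule lists were mixed. Slc6a12, a carrier of the osmolyte betaine, had values of 157, 138, 180 and 168 at CT8, against 90, 96, 87 and 96 at CT0. The groups did not overlap, and the log2 difference was 0.79 ± 0.11 (SE; limma adjusted p = 5.06e-05). Nccrp1, an F-box related gene, rose by 0.76 and Gsta1, a glutathione transferase gene, by 0.73. Tmem252 and Clec2h rose by 0.79 and 0.74. Ttr, the carrier of thyroid hormone, which liver makes in bulk, had values of 1825, 2786, 2398 and 2094 at CT8, against 1320, 969, 1359 and 1189 at CT0, and rose by 0.91 ± 0.20 (SE; limma adjusted p = 0.00846). Afp, the other abundant gene of the liver list, differed by -0.001. Ifi27l2a, an interferon-induced gene, ranged from 336 to 705 at CT8, against 124 to 290 at CT0, and rose by 1.49 ± 0.33 (SE; limma adjusted p = 0.00955). On the interferon list 3 of 25 genes rose (12.0%, against 3.54% of all tested genes) and 0 fell. The count was 1 when any of CT8 replicates 1 to 3 or CT0 replicates 2 and 3 was left out. It was 5 without CT0 replicate 4 and 0 without both libraries that stand apart.

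Of 23 tested core clock genes, 4 rose and 0 fell, at a median of 0.03. This was 17.4% of the list, against 3.54% of all tested genes that rose. Cry1, a repressor of the clock, had values of 1308, 1271, 1347 and 1463 at CT8, against 1064, 1208, 1239 and 1099 at CT0. There was no overlap between the times, and the log2 difference was 0.23 ± 0.05 (SE; limma adjusted p = 0.0075). Per2, its partner in the repressor complex, rose by 0.28 and was at 737 to 825 at CT8, against 573 to 709 at CT0. Clock, which encodes 1 partner of the activator pair, and Hlf, an output transcription factor gene, both rose by 0.21. Arntl, the other partner, differed by 0.10, Nr1d1, the nuclear receptor that represses Arntl, by -0.07, and Dbp, an output transcription factor gene, by -0.14, and none of the 3 passed. The call for Hlf was lost in 9 alternatives and that for Per2 in 3. The count became 2 without CT8 replicate 3, 2 without CT0 replicate 2, and 3 without both libraries that stand apart.

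Of 20 heat shock and chaperone genes, 5 rose, against 3.54% of all tested genes, and 0 fell. Without both libraries that stand apart, 4 of these 20 rose. Hspa8, the constitutive cytosolic chaperone, had values of 67884, 64405, 63542 and 63424 at CT0, 60650, 61889, 57537 and 60511 at CT4, and 76687, 74180, 74385 and 72582 at CT8. CT8 lay above both other times and CT4 below, and the log2 difference of CT8 minus CT0 was 0.20 ± 0.05 (SE; limma adjusted p = 0.00852). The call was lost under quantile normalisation and without both libraries that stand apart. Cryab, a small heat shock protein gene, rose by 0.28, the co-chaperone genes Dnajb4 and Dnajb1 by 0.26 and 0.17, and the inducible Hspa1b by 0.24. Hspa1b has a near-identical copy, so its value is uncertain as that of a single gene. The splicing kinase genes Clk1 and Clk4 rose by 0.32 and 0.23, and Sltm, which encodes an RNA-binding protein, by 0.16. They were 3 of 14 on their list (21.4%, against 3.54% of all tested genes). The count was 1 of 14 without both libraries that stand apart.

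Of the metabolic and stress lists, fatty acid oxidation had 4 genes higher of 22 (18.2%, against 3.54% of all tested genes) and 0 lower. Among these were Cyp4a10, a fatty acid hydroxylase (0.65), Ppara, the receptor that induces the pathway (0.23), and the oxidation enzyme gene Acadvl (0.13). The count was 1 without CT8 replicate 2, CT8 replicate 3 or CT0 replicate 2, 2 without CT0 replicate 3 or CT0 replicate 4, 8 without CT8 replicate 4, and 0 without both libraries that stand apart. On the integrated stress list, Ddit3, a transcription factor of stressed cells, rose by 0.28, Herpud1, of protein degradation at the endoplasmic reticulum, by 0.19, and Slc3a2, an amino acid transporter subunit, by 0.16, and Trib3, a pseudokinase, fell by 0.62. Genes with a call made up 17.4% of that list, against 7.67% of all tested genes. Without CT8 replicate 3 or CT0 replicate 2, 1 gene of that list rose, and without both libraries that stand apart 2 rose and 0 fell. On the lists of cytosolic ribosomal proteins (30 tested), oxidative phosphorylation (23), immediate early genes (23), hypoxia and glycolysis (22) and p53 targets (13), 0 genes passed in limma's test. At an unadjusted p under 0.05 these lists held 1, 7, 4, 6 and 5 genes, in the same order. By sign, 27 ribosomal protein differences were below 0 and 3 above, at a median of -0.02. All 23 oxidative phosphorylation differences were above 0, at a median of 0.07. For hypoxia 16 were below 0 and 6 above, at a median of -0.15. Immediate early genes had 17 above and 6 below (median 0.09), and p53 targets 9 and 4 (median 0.05). Without both libraries that stand apart, 2 immediate early genes rose and 2 hypoxia genes fell. Of the other lists, Insig1, which holds back cholesterol synthesis, fell by 0.26 (1 of 20), Lcn2, an iron-carrier binding protein of the glucocorticoid list, rose by 0.32 (1 of 21, with 1 more gene lower without both libraries that stand apart), Me1, malic enzyme of fatty acid synthesis, rose by 0.24 (1 of 13), and Ddx21, a nucleolar helicase, rose by 0.13 (1 of 23). In the same order these were 5.0%, 4.76%, 7.69% and 4.35% of their lists. With 7.67% of all tested genes called, they are results of single genes and not of their lists.

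Between CT4 and CT0, 46 genes passed, or 0.321%, with 24 higher at CT4 (0.167%) and 22 lower (0.153%), and 232 passed between CT8 and CT4 (1.62%). The 3 comparisons share libraries, so their counts are not independent of each other. The order of these counts depended on the fit: with only the groups compared in it, 245 genes passed between CT4 and CT0 and 150 between CT8 and CT4. With the replicate number as a block in the 12 libraries, the counts were 194 and 540. The first count was 29, 27 and 17 without CT4 replicates 1, 3 and 4, and 24, 29 and 30 without CT0 replicates 2, 3 and 4. The second was 148, 94 and 403 without CT8 replicates 2, 3 and 4, and at most 142 without any 1 of the 4 CT4 libraries. Of the 232, 85 were higher at CT8 (0.593% of tested genes) and 147 lower (1.03%), a share of 36.6% higher, against 46.8% under quantile normalisation and 47.6% with median-ratio size factors. Whether CT4 lay on the straight line between the end points was tested by setting it against the mean of CT0 and CT8. In this test 73 genes passed (0.509%), 45 with CT4 above the line (0.314%) and 28 with CT4 below it (0.195%). For 193 genes (1.35%) the 4 CT4 libraries lay above or below all 8 others. The count was 25, 31 and 34 without CT4 replicates 1, 2 and 4.

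On the integrated stress and unfolded protein list, 6 of 23 tested genes passed with CT4 below the line and 1 with CT4 above it. Over all tested genes, 0.195% passed below the line and 0.314% above it. On the list, 14 differences were below 0 and 9 above. Hspa5, the main chaperone of the endoplasmic reticulum, had values of 29706, 28848, 27941 and 27224 at CT0, 23400, 23331, 23405 and 22716 at CT4, and 27023, 28421, 26055 and 27811 at CT8. The CT4 libraries lay below all 8 others, and their mean was 0.26 below the line (limma adjusted p = 0.00892). Between CT8 and CT0, Hspa5 differed by -0.06 and did not pass. Xbp1, a transcription factor that induces such chaperones, lay 0.24 below the line (limma adjusted p = 0.00259), with 5510 to 5655 at CT0, 4606 to 4892 at CT4 and 5486 to 5723 at CT8. Manf, Sdf2l1, Creld2 and Pdia4, which act in folding there, lay 0.27, 0.33, 0.20 and 0.17 below it. Atf4, the transcription factor of the integrated stress response, went the other way, with 5156 to 5664 at CT0, 6177 to 6382 at CT4 and 5516 to 5780 at CT8 (0.19 above the line, limma adjusted p = 0.000912). The cytosolic chaperone genes Hsph1 and Hspa8 lay 0.41 and 0.21 below.

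**Figure D3:**
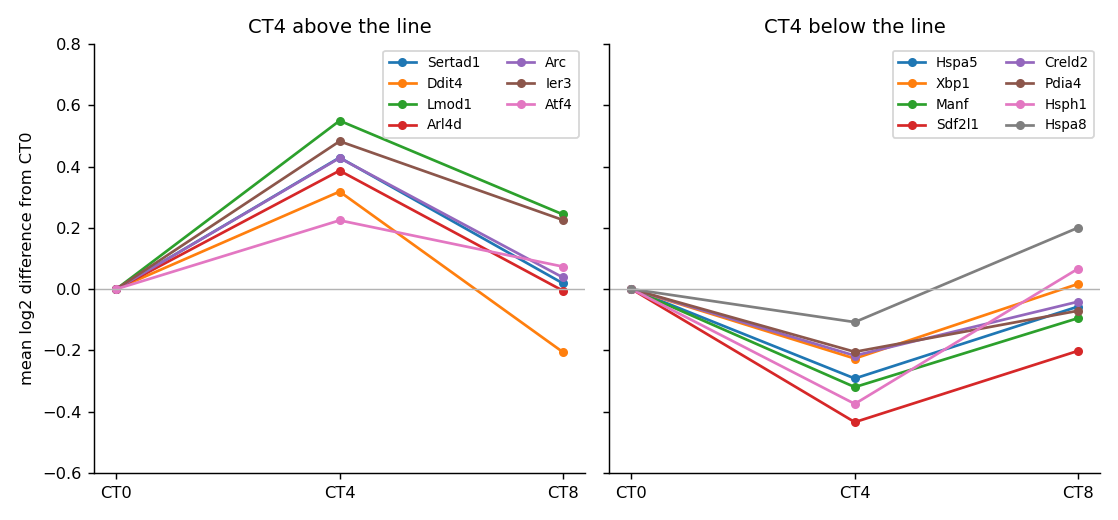
Mean log2 difference from CT0 (y axis) at CT0, CT4 and CT8 (x axis) for 7 genes with CT4 above the straight line between CT0 and CT8 (left) and 8 genes with CT4 below it (right). Hspa5, Xbp1 and Manf are lowest at CT4, and Sertad1, Arc and Arl4d are highest there, with means at CT8 close to those at CT0.

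Genes with a peak at CT4 included Sertad1, a transcriptional coregulator of the cell cycle, with values of 649, 650, 686 and 622 at CT0, 856, 854, 897 and 904 at CT4, and 704, 649, 625 and 664 at CT8. The CT4 libraries lay above all others, 0.42 ± 0.06 above the line (SE; limma adjusted p = 0.000203). Ddit4, an inhibitor of mTORC1, also lay 0.42 above, the neuronal immediate early gene Arc 0.41 and the small GTPase gene Arl4d 0.39. Egr1, an immediate early transcription factor, went the other way, at 1045 to 1565 at CT0, 917 to 996 at CT4 and 1215 to 1653 at CT8 (-0.51, limma adjusted p = 0.00892). Pappa, a protease that frees insulin-like growth factors, lay 0.27 below.

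On the renin and smooth muscle list, 3 of 16 tested genes passed with CT4 above the line and 0 below it, while 1 of 16 passed between CT4 and CT0. Over all tested genes, 0.314% passed above the line, and 0.321% passed between CT4 and CT0. Lmod1, an actin nucleator of smooth muscle, had values of 227, 205, 183 and 251 at CT0, 316, 308, 325 and 312 at CT4, and 276, 240, 273 and 233 at CT8, and lay 0.43 above the line (limma adjusted p = 0.00721). Acta2, smooth muscle actin, and Myl9, a myosin light chain, lay 0.25 and 0.20 above it. All 16 differences from the line were above 0, at a median of 0.17. The list's summed level was 56028 to 63108 at CT0, 61905 to 66368 at CT4, and 53189 to 60894 at CT8, so CT4 overlapped CT0 and not CT8. Between CT8 and CT0, Rgs4, a regulator of G protein signals, rose by 0.61, while Des, an intermediate filament gene, and Synpo2, an actin binder, fell by 0.22 and 0.19. These calls were 18.8% of the list, against 7.67% of all tested genes. The call for Des was lost without CT0 replicate 3 or CT0 replicate 4, and 1 gene rose and 1 fell on that list without both libraries that stand apart. The amount of vessel or ureter wall in each dissection was not measured.

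Whether these differences belong to the start of the day was asked by subtracting a later stretch of equal length, CT24 against CT16, measured in 8 separate libraries of the same part of the series. The CT16 kidneys were at E18 + 16 h and the CT24 kidneys at E19. Between CT24 and CT16, 2367 genes passed (16.5%), 1290 of them higher at CT24 (9% of those tested) and 1077 lower (7.51%). The difference of the 2 intervals passed for 988 genes (6.89%), 384 higher in the first interval (2.68%) and 604 lower (4.21%), with 602 passing without CT8 replicate 3, 512 without CT0 replicate 4 and 601 without CT16 replicate 1. Slc6a12 (0.91), Aqp2 (0.49), Hmx2 (0.66) and Slc4a1 (0.59) rose more in the first interval. H1f0 (-0.43), Cyp26b1 (-0.60), Eya1 (-0.33) and Pdgfra (-0.23) fell more in it. Of these genes, Slc6a12 and Slc4a1 were named by this same test. The others were named for their CT8 minus CT0 difference, which is part of it. Their departure was thus favoured in advance, and they do not answer the question for the differences as a whole.

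The lists divided in this comparison. Of all tested genes, 3.54% rose and 4.13% fell in the first interval, and 9% rose and 7.51% fell in the second. The difference of the intervals passed for 6.89%, with 2.68% higher in the first and 4.21% lower. Calls were thus more frequent in the second interval, and list counts are to be read against these shares. On the proximal tubule list, 16 genes rose between CT8 and CT0 and 14 between CT24 and CT16, and the difference of the intervals passed for 0 of 31 genes in limma's test (3 at an unadjusted p under 0.05). Intercalated cell genes had 8 rises in the first interval and 0 in the second (5 at an unadjusted p under 0.05 in limma's test), and the difference passed for 5 of 16, all higher in the first. For mitosis, 25 fell in the first and 11 in the second, but the difference passed for Ccnb2 alone (-0.25). For DNA replication, 4 fell in the first and 25 in the second, and the difference passed for Pcna (0.22), Ccne1 (0.38) and Ccne2 (0.50). Heat shock genes had 5 rises in the first and 11 falls in the second, and 8 of 20 differences passed, all positive, led by Hspa8 at 0.49. Hypoxia and glycolysis genes had 0 calls in the first and 9 rises in the second, and 7 of 22 differences passed, all negative, among them the glucose transporter gene Slc2a1 at -0.68 and the hexokinase gene Hk2 at -0.59. Of the clock genes, Cry1 rose more in the first interval (0.39), and Dbp (-0.52), Nr1d1 (-0.28) and Bhlhe41 (-0.79) had lower differences in it than in the second.

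**Figure D4:**
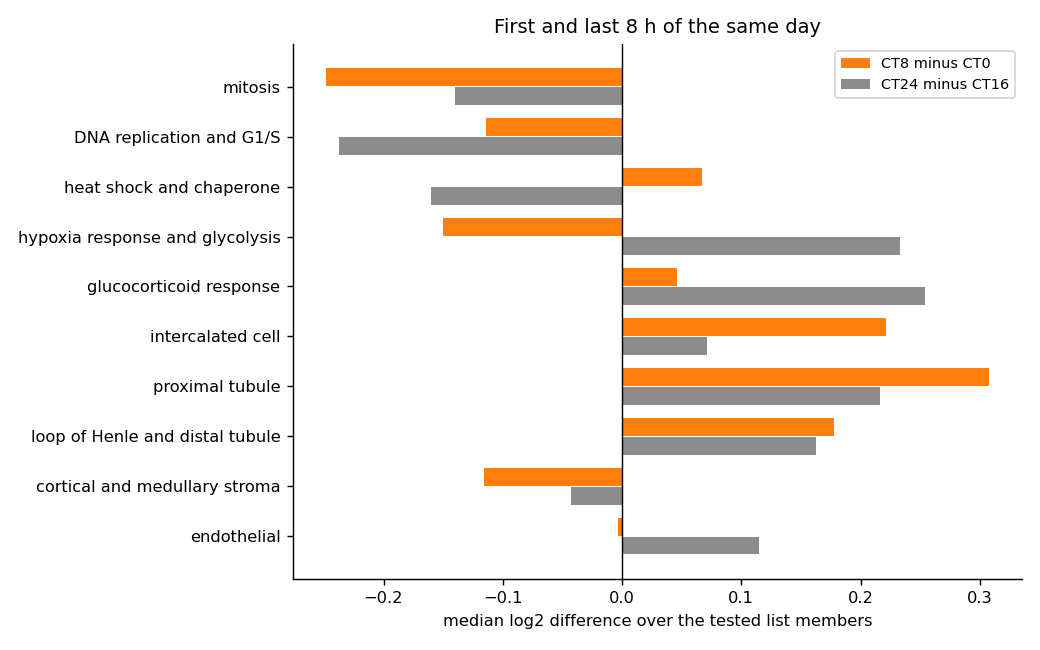
Median log2 difference (x axis) over the tested members of 10 gene lists (rows) for CT8 minus CT0 (orange) and CT24 minus CT16 (grey). Heat shock genes and hypoxia genes have medians of opposite sign in the 2 intervals, and mitosis, replication and tubule genes have the same sign.

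On 8 lists of other tissues, 5 of 77 tested genes passed (6.49%), against 7.67% of all tested genes. Csf1r, the growth factor receptor of macrophages, rose by 0.27, 1 of 16 on the macrophage list, whose summed level was 7891 to 8891 at CT8, against 7137 to 8509 at CT0. Lcn2 was the 1 of 9 neutrophil genes that passed. On the adrenal, adipose, and nerve and glia lists 0 of 8, 0 of 2 and 0 of 11 passed in limma's test, with 0, 0 and 1 at an unadjusted p under 0.05, and Adipoq, a defining fat gene, was at 0 in 10 of 12 libraries. Actn3, of fast muscle fibres, fell by 0.37, 1 of 11 skeletal muscle genes. All 11 differences lay below 0, with a median of -0.48, which was -0.14 without both libraries that stand apart and -0.22 without CT0 replicate 3. The summed level of that list was 670 to 865 at CT8, against 830 to 1609 at CT0, and its part in other results was not tested.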

How the data were processed

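Kidneys of fetal mice were sequenced at 13 time points, giving 51 libraries. The submitters' processing notes name mm10 and the tools featureCounts 1.5.0-p3, STAR 2.5.2b and bcl2fastq. Normalisation, annotation and strand setting were not given in the sources used here. Values in the table deposited by the authors were treated as a score: whole numbers that had been normalised and then rounded, as read from the values. In low genes the ratio of variance to mean among libraries of 1 time point was 0.736, below counting noise, so no counting interval was computed.

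A test for counts had been planned and could not be used on this unit. Instead limma 3.58.1 (R 4.3.3; trended, robust) was fitted to log2(value + 1), with a mean per time point, over the 27 libraries of CT0 to CT24. Genes whose mean there reached 10 entered, 14336 of 16099. The scale understates changes of low genes. The noisier libraries of CT28 to CT48 entered 1 alternative only. The fit was tested on simulated data. Positions are from GENCODE M21, in which 15979 symbols were found, and promoters from RefSeq on GRCm38.p6.

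Named genes were the 10 largest rises and falls with groups that do not overlap and a mean of at least 100, the 5 largest of each sign for the midpoint and interval tests, the tested clock genes, and up to 4 genes from each of 39 lists. The ranks exclude predicted genes, pseudogenes and genes linked to sex. Some genes that met these rules are not reported here. List members beyond these were named after their values were seen. The comparison and the lists were chosen with earlier results of these data known. A list was described by its counts and median, with no test of the list.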

Additional observations from a re-analysis of the deposited data

Results flagged for a closer look

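Named genes were searched for 1 library far from the other 3 of its time point, in 396 groups of 4, and 19 such gaps were found. Chance gives about 1 in 20 such groups. At CT8 the library apart was replicate 4 for the mitotic gene Ube2c (3016, above the others) and for Phf19 (696, above), replicate 3 for Sdf2l1 (601, below) and replicate 1 for Cry2 (869, below). At CT4 it was replicate 4 for Ptx3 (216, below), replicate 3 for Slc16a3 (537, below) and Dbh (12, above), and replicate 2 for Col4a3 (2167, below). At CT0, replicate 3 was low for Sprr2f (329) and Synpo2 (1147) and high for Gpr135 (118) and Trib3 (72). Also at CT0, replicate 4 was low for Gsta1 (66.0) and Bhlhe41 (55) and high for Hlf (514) and Dbh (1), and replicate 1 was low for Ddit4 (1530) and high for Col4a3 (2207) and Pparg (299).

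For 41 named genes, the difference of CT8 minus CT0 departed from that of CT24 minus CT16 in limma's test of the 2 intervals, with adjusted p from 5.87e-07 (H1f0) to 0.0455 (Slc16a3). Over all tested genes 6.89% passed this test. Some of the named genes were chosen by this same test, and others for a large CT8 minus CT0 difference, which is part of it. Their departure was thus favoured in advance, and the count is not a separate result. Values are the first interval minus the second, on the log2 scale. Positive values were those of Slc6a12 (0.91), Gpr135 (0.69), Hmx2 (0.66), Slc4a1 (0.59), Ranbp3l (0.57), Nccrp1 (0.55) and Aqp2 (0.49). Also positive were Hspa8 (0.49), Hsph1 (0.48), Hspa1b (0.41), Sltm (0.32) and Ddx21 (0.32). The remaining positive values were those of Cry1 (0.39), Aen (0.25) and Thsd7a (0.23).

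Negative values were more numerous. Genes named for their fall between CT8 and CT0 had Sprr2f at -0.73, Oit3 at -0.64, Cyp26b1 at -0.60, Xkr5 at -0.57, Ubxn10 at -0.55, B3gnt5 at -0.51, H1f0 at -0.43 and Eya1 at -0.33. Other named genes had Atp12a at -0.98, Slc16a3 at -0.97, Trib3 at -0.93, Mlph at -0.80, Igfbp1 at -0.77, Fgf11 at -0.77, Ddit4 at -0.54, Arl4d at -0.54 and Egln1 at -0.25. Clock genes had Bhlhe41 at -0.79, Dbp at -0.52 and Nr1d1 at -0.28. Members of the stroma, early nephron and endothelial lists had Cldn11 at -0.27, Lfng at -0.24, Pdgfra at -0.23, Kdr at -0.22 and Sfrp2 at -0.17, and Ccnb2 had -0.25. For Atp12a, which encodes a proton pump, the mean was 507 at CT8, against 572 at CT0, and 1024 at CT24, against 584 at CT16.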

How the results depend on the processing

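Between CT8 and CT0, 1034 to 1121 genes passed under other pseudocounts, filters, normalisations and moderation and with the 12 libraries of CT0, CT4 and CT8 alone. With median-ratio size factors 53.9% of the calls were higher at CT8, against 46.1% in the main test. With all 51 libraries the counts were 62 for CT8 against CT0, 2 for CT4 against CT0, 5 for CT8 against CT4, 2 for the departure of CT4 from the line and 29 for the difference of the 2 intervals, and the spread in those libraries is wider. With the groups compared alone they were 589 for CT8 against CT0, 245 for CT4 against CT0 and 150 for CT8 against CT4.

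The labels do not say that same-numbered libraries share a litter or day, and not every same-numbered pair correlated above 0.1, so the numbers were not taken as pairs. Correlations, as deviations from the group means, were 0.22, 0.202, 0.201 and -0.009 for CT8 and CT0, 0.028 to 0.347 for CT4 and CT0, and -0.047 to 0.082 for CT8 and CT4. Of the 4 CT8 libraries, 2 correlated best with their own number. With the replicate number as a block, 1396 genes passed for CT8 against CT0 and 76 for CT4 against CT0. With the block and the 12 libraries alone, 1748 passed for CT8 against CT0, 194 for CT4 against CT0, 540 for CT8 against CT4 and 141 for the departure of CT4. The cause was not tested.

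Leaving out 1 library gave 502 to 1493 calls for CT8 against CT0, 17 to 38 for CT4 against CT0, 94 to 403 for CT8 against CT4, 25 to 79 for the departure of CT4 and 512 to 1120 for the difference of the intervals. Without CT8 replicate 2 and CT0 replicate 3, 550 genes passed for CT8 against CT0. No named gene with a call changed sign under the 21 alternatives run for CT8 against CT0. Among named genes with no call, the sign changed for 6 when libraries were left out: Rora at -0.072 to 0.089, Uty at -0.473 to 0.035, Per3 at -0.114 to 0.008, Pparg at -0.171 to 0.048, Per1 at -0.018 to 0.085 and Bhlhe40 at -0.019 to 0.209. Depth is unknown, so what low values can show is set by the spread between 4 libraries.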
